A study of Mus musculus with 4 samples.

Results

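Complement genes, 9 of the 19751 genes that the arrays name, were followed through the response of differentiating myoblasts to interferon-gamma (IFN-γ): C1ra, C1s1, C1s2, C4b, C2, C3, Cfb, Serping1 and Cd55. Every probe that is no control and whose transcript accession maps to one of these symbols was kept, which gave 13 of 39429 probes. The cells were C2C12, an established mouse myoblast line that fuses into myotubes when serum is lowered, harvested on day 3 of differentiation. Treated cells had received IFN-γ at 1 ng/ml throughout, and control cells were differentiated in the same way without cytokine. Differentiation medium held 2% horse serum according to the treatment protocol and 10% according to the sample source, for treated and control cells alike. On each of 4 arrays of 2 colours, Cy5 carried the treated and Cy3 the control RNA, so dye and treatment cannot be told apart. The labels call the arrays biological replicates but do not state that every array had control cells of its own; the p-values therefore rest on array-to-array spread, which may be partly technical. In RNA of whole cultures, fewer cells making a transcript and less transcript per cell cannot be told apart.

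Complement is a cascade of plasma and cell-surface proteins that marks and lyses targets. In the classical pathway the proteases C1r and C1s cleave C4 and C2 to form the enzyme that splits C3, and in the alternative pathway factor B takes the place of C2 in that enzyme. C1 inhibitor blocks C1r and C1s in solution, and decay-accelerating factor takes the C3-splitting enzymes apart on the cell's own membrane. The liver makes most plasma complement, and other cells, muscle cells among them, can make components when exposed to cytokines.

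Values below are log2 ratios of IFN-γ over control after background correction and loess normalisation, with the SD over the 4 arrays. A gene is given by its brightest probe and is called changed at an adjusted p under 0.05 (limma, Benjamini-Hochberg over all 28921 tested probes). IFN-γ raised 7 of the 9 genes, each by more than 2-fold on that probe, and lowered none. Brightness was averaged over both channels, so the treated channel took part in the choice of probe. For C3 the other probe was brighter in Cy3 on every array and gave a 1.69-fold rise. C2 and Cd55 were not called. Across all 15673 tested genes 18.8% were called higher and 12.9% lower, 1.79% were called higher and at least 2-fold, and 0.957% lower and at least 2-fold. The median ratio of the 9 members was 2.29, against 0.026 for all tested genes. Of the 13 probes 11 were called higher, against 16.5% of all tested probes, and 0 lower, against 12.6%. The second C1s2 probe, among the 11, passed the filter for testing only through the treated channel. With both channels required to be well above background on all arrays, 10 probes were called higher.

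**Figure D1:**
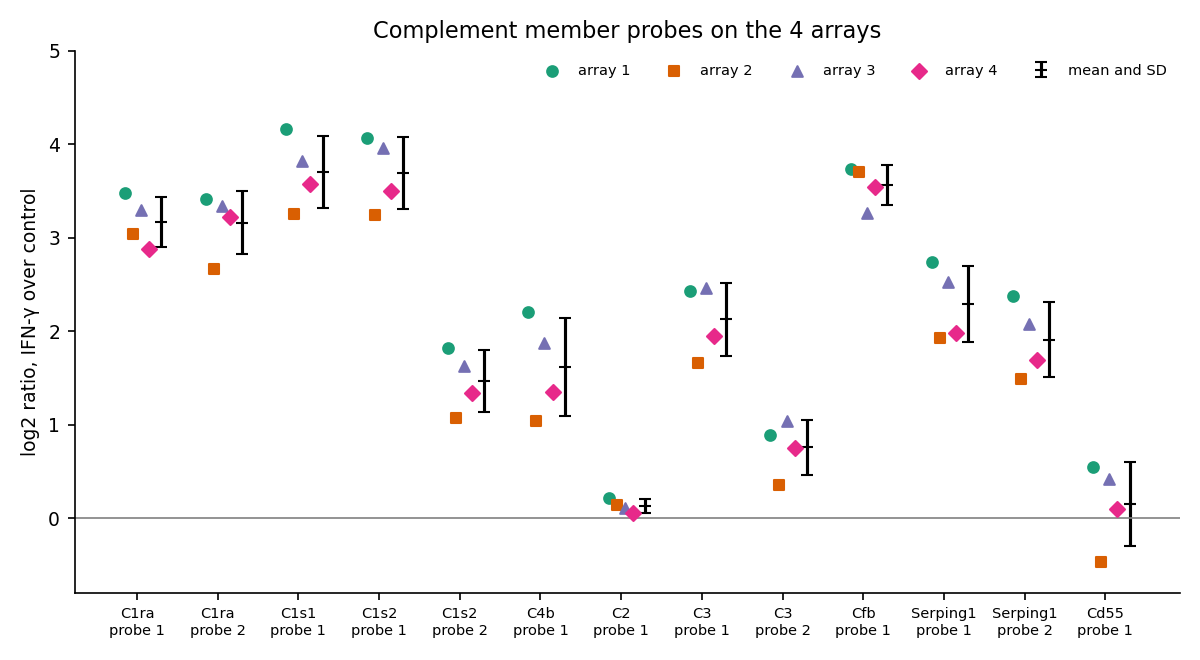
Log2 ratio of IFN-γ over control (y axis) for the 13 member probes (x axis) on each of the 4 arrays (coloured points), with the mean and SD (black). All points of C1ra, C1s1, C1s2 probe 1 and Cfb lie at 2.67 or above, the points of C2 lie between 0.052 and 0.22, and those of Cd55 fall on both sides of 0.

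Median spot intensities over all spots that are no controls lay between 79.8 and 97 in Cy3 and between 149.5 and 264 in Cy5. Correlations of log2 ratios between pairs of arrays ran from 0.85 to 0.89 without replicate 2 and from 0.54 to 0.66 with it. Replicate 2 gave the lowest ratio of the 4 arrays for 6 of the 9 members, and replicate 1 the highest for 8. Its part in each result was measured by leaving it out, and only the call of Cd55 changed among the members. Myogenic genes were strongly represented, with Myog, the regulator of terminal differentiation, at a Cy3 median over arrays of 19395, and all 10 of 10 listed myoblast and myotube markers tested.

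The proteases that start the classical pathway held the 2 highest mean ratios among the members, those of C1s1 and C1s2. C1s1, which encodes the C1s protease that cleaves C4 and C2, had spot intensities of 449, 294, 387 and 338 in control Cy3 and of 30290.5, 9058, 38029 and 18017 in treated Cy5 on replicates 1 to 4. The median of all spots was also higher in Cy5 on every array, so these intensities alone compare channels as well as treatments. After normalisation the ratios were 4.17, 3.25, 3.83 and 3.57, a mean of 3.70 ± 0.39 (SD, n = 4), a 13.0-fold rise with an adjusted p of 8.13e-05. It ranked 32nd among the 15673 tested genes by mean ratio.

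C1ra, which encodes the protease C1r that activates C1s, was read by a pair of probes that gave the same mean. The first had ratios of 3.47, 3.04, 3.29 and 2.87 and a mean of 3.17 ± 0.27 (9.0-fold, adjusted p = 4.97e-05). The second had 3.41, 2.67, 3.34 and 3.22 and a mean of 3.16 ± 0.34 (8.93-fold, adjusted p = 9.53e-05). The difference between the probes changed sign across arrays, with a mean of 0.011 ± 0.30. C1s1 exceeded C1ra on 4 of 4 arrays, by 0.53 ± 0.23.

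C1s2, a paralogue of C1s1 that lies near it, had ratios of 4.07, 3.25, 3.96 and 3.50 on its bright probe, a mean of 3.69 ± 0.39 (12.9-fold, adjusted p = 8.17e-05). These differed from the ratios of C1s1 by 0.011 ± 0.10, and by root mean square difference over the arrays no tested gene lay closer to C1s1. The second C1s2 probe was dim in control cells, with intensities of 49 to 58 over a local background of 36 to 42, and was well above background there on 1 of 4 arrays. In treated cells it reached 211 to 697 and was above background on 4 of 4. Its ratio was 1.46 ± 0.33 (adjusted p = 0.0018) and depended on background treatment, being 2.07 with a smaller normexp offset. With Feature Extraction's ratios it was 3.63, beside 3.77 for the bright probe, so a difference between the probes was not established. Which of the paralogous transcripts each probe read was not tested.

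The genes closest to C1s1 in log2 ratio over the 4 arrays, by root mean square difference, were C1s2 at 0.090, B2m, the light chain of MHC class I molecules, at 0.13 and Serpina3f, a serine protease inhibitor, at 0.17. Closest to C1s2 were C1s1, Ifi27l2a at 0.19 and B2m at 0.19.

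The C1r and C1s genes stand side by side on chromosome 6. RefSeq promoters on build GRCm38.p6, from 250 bases before to 50 after an annotated start, were held for 5 of the 9 members. The interferon-gamma activated site TTCNNNGAA was searched on both strands and found in 8.30% of all 32851 promoters. Of the 5 members it was found in C1ra, at bases 33 to 41 after the start, and the same stretch recurs in C1rb, the paralogue of C1ra, at bases −119 to −111 from its annotated start. The matching stretches are shown because the probes of this pair differ in ratio, with the motif in capitals.
C1ra, chr6:124512642-124512670, plus strand: caaatgcttcaTTCCCTGAAacattcctc
C1rb, chr6:124570300-124570328, plus strand: caaatgcttcaTTCCCTGAAacatttctc
These 29 bases differ at a single position counted from 1 at the 5′ end of the C1ra stretch, C26T. The promoter windows of both genes aligned over 148 bases with 139 identical, or 93.9%. The windows are offset, as the stretch lies after the start of C1ra and before that of C1rb. The aligned length therefore also reflects where the starts are annotated. C1rb, which encodes a second C1r protease, had ratios of 1.51, 1.00, 1.42 and 1.24, a mean of 1.29 ± 0.22 (adjusted p = 0.0011), below every ratio of C1ra. With Feature Extraction's ratios C1rb had 1.55, beside 3.32 for the first C1ra probe. Which of these paralogous transcripts each probe reads was not tested.

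The sequences before the starts of C1s1 and C1s2 are shown because these genes had the same ratio on their bright probes. Neither holds that motif, the interferon-stimulated response element core, GAAA and GAAA with any 2 bases between them (3.44% of all promoters) or the kappa-B consensus (4.51%), on either strand.
C1s1, chr6:124542360-124542509, minus strand: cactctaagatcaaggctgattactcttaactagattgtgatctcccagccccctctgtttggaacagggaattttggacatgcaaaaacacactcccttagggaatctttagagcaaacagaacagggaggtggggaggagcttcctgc
C1s2, chr6:124636086-124636235, minus strand: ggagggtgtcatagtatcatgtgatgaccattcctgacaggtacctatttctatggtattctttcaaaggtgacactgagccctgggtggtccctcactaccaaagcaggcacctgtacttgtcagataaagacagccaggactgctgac
The best local alignment of the C1s2 window with the C1s1 window that holds the stretch shown covered 11 bases, so little sequence was shared there. A second C1s1 window was held, also without a match, and was not aligned. Absence of a match says only that these letters are not in these windows.

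**Figure D2:**
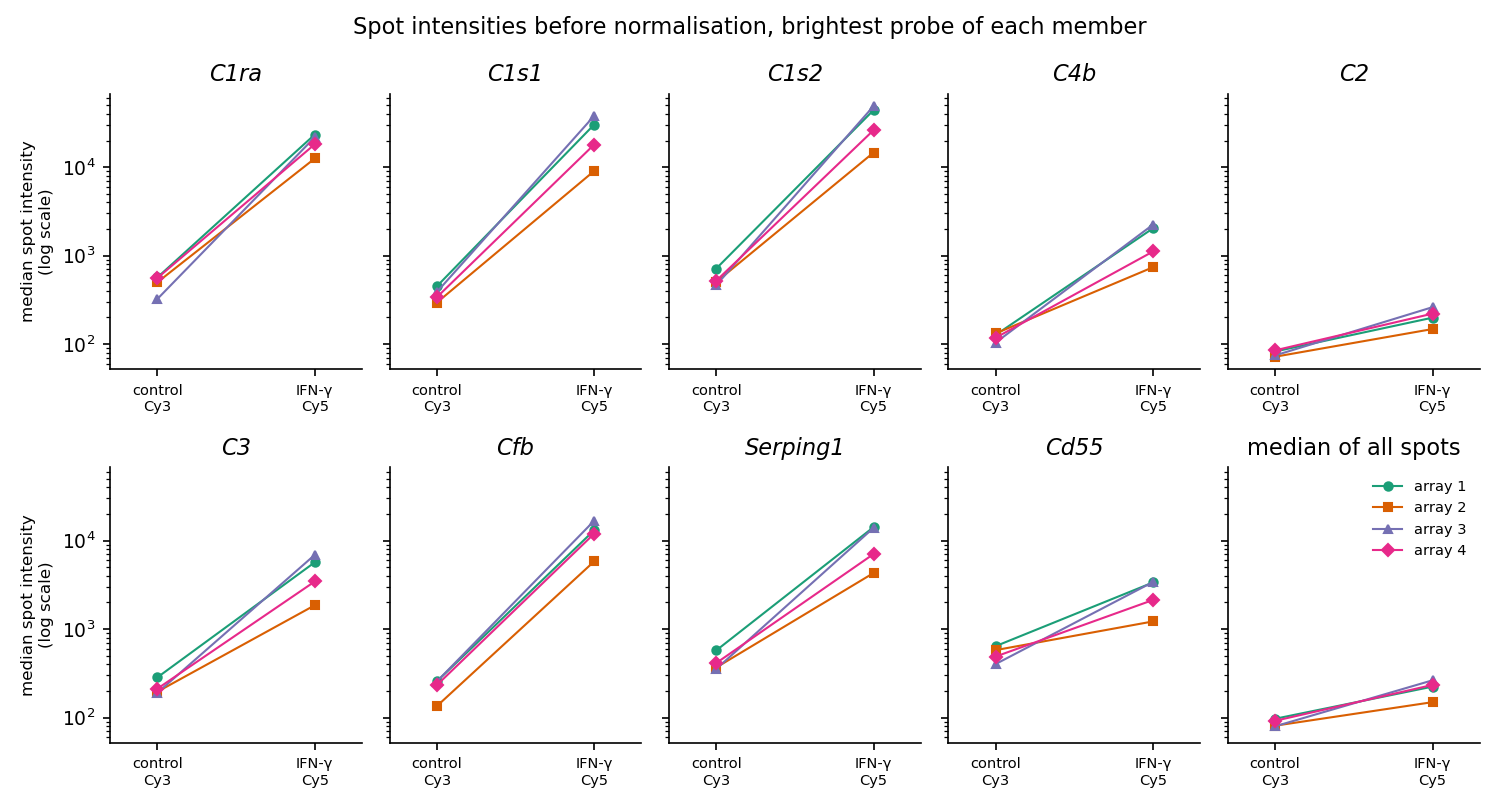
Median spot intensity (log scale, y axis) of control RNA in Cy3 and treated RNA in Cy5 (x axis) for the brightest probe of each member and for the median of all spots, 1 line per array, before normalisation. The lines of C2 run from 72 to 85 up to 148 to 262, close to the lines of the all-spot median, whereas those of C1s1 run from 294 to 449 up to 9058 to 38029.

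The substrates of C1s responded unequally. C4b, the fourth component, had ratios of 2.21, 1.04, 1.88 and 1.34, a mean of 1.62 ± 0.52 (3.07-fold, adjusted p = 0.0041). It was higher on 4 of 4 arrays and had the widest spread of the called members. Whether the probe also reads C4a, the near-identical paralogue of C4b, was not tested. C2, the other substrate, had ratios of 0.22, 0.14, 0.10 and 0.052, a mean of 0.13 ± 0.07 with a 95% interval from −0.020 to 0.28 (adjusted p = 0.16). Its upper end corresponds to a 1.21-fold rise under this background treatment, and the mean was 0.22 (adjusted p = 0.19) with Feature Extraction's ratios. The C2 probe was faint, at 72 to 85 in Cy3 over a local background of 35 to 37 and 148 to 262 in Cy5 over 37 to 42, and was above background on 4 of 4 arrays in both channels. With centring on the tested probes and no loess, chosen after seeing the data, its ratio was −0.30 and passed as lower (adjusted p = 0.030).

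Factor B, which takes the place of C2 in the alternative pathway, was among the members with the largest rise. Cfb had Cy3 intensities of 256, 134.5, 255.5 and 232.5 and Cy5 intensities of 13123, 5832, 16787 and 11997. Its ratios were 3.74, 3.70, 3.26 and 3.54, a mean of 3.56 ± 0.22 (11.8-fold, adjusted p = 2.45e-05), with the lowest adjusted p of all members. Cfb is the member for which replicate 3 was lowest. Cfb and C2 are adjacent genes, and Cfb exceeded C2 by 3.43 ± 0.18, with 3.16 to 3.56 on the 4 arrays.

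C3, the component on which all pathways converge, rose on both of its probes but by different amounts. The first probe is printed 10 times on each array. Its spots gave array means of 2.43, 1.66, 2.47 and 1.95 over the 8 or 9 spots per array without an outlier flag, a mean of 2.13 ± 0.39 (4.37-fold, adjusted p = 0.00085). The SD between spots of an array was 0.067 to 0.094, below the SD of 0.39 between arrays. The second probe had ratios of 0.89, 0.35, 1.03 and 0.75, a mean of 0.76 ± 0.29 (1.69-fold, adjusted p = 0.0082). The first exceeded the second by 1.37 ± 0.15, with 1.20 to 1.54 on the 4 arrays, while both had the same order of arrays at the low end, replicate 2 and then replicate 4. Why the probes differ was not tested.

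**Figure D3:**
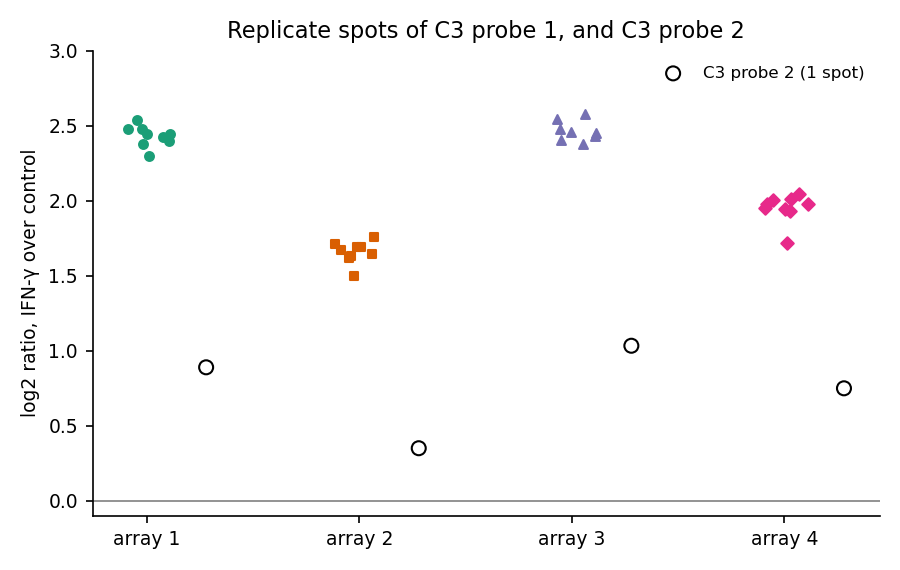
Log2 ratio of IFN-γ over control (y axis) of the replicate spots of C3 probe 1 on each array (coloured points; horizontal offsets only separate the points) and of C3 probe 2 (open circles). Spots of an array lie close together, with an SD of 0.067 to 0.094, and probe 2 lies 1.20 to 1.54 lower on every array.

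The 150 bases before the start of C3 are shown because C3 is known from the liver acute phase response, where C/EBP factors act on its promoter. The motif TTGCGNAA, a form of the C/EBP site chosen after the sequence was seen, is in capitals and was found at bases −45 to −38 from the start and in 0.798% of all promoters.
C3, chr17:57228137-57228286, minus strand: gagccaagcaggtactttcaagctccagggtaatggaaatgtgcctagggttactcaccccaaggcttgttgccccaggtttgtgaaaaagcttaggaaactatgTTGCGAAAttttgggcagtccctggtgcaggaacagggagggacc
Cebpb, which encodes a C/EBP factor of that response, rose by 0.39 ± 0.25 (adjusted p = 0.040). It did not pass without replicate 1, 3 or 4, or with Feature Extraction's ratios (adjusted p = 0.074). Of the other C/EBP genes listed, Cebpa rose by 0.76 ± 0.16 (adjusted p = 0.0029), and Cebpd had −0.0069 ± 0.14 and was not called. No other motif searched was found in the C3 window. Promoters of C4b, C2, Cfb and Serping1 are not shown.

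The regulators differed from each other. Serping1, which encodes the C1 inhibitor, had ratios of 2.74, 1.93, 2.53 and 1.98 on its brighter probe, a mean of 2.29 ± 0.40 (4.90-fold, adjusted p = 0.00071). The second probe gave 2.38, 1.49, 2.08 and 1.69, a mean of 1.91 ± 0.40 (3.76-fold, adjusted p = 0.0013), lower by 0.38 ± 0.08. The inhibitor gene rose less than C1s1 and C1ra, and more than C1rb, the gene of the second C1r protease, at 1.29 ± 0.22. C1s1 exceeded Serping1 by 1.41 ± 0.13 and C1ra by 0.88 ± 0.17, each on 4 of 4 arrays. These differences compare changes on separate probes, not amounts of transcript.

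Cd55, which encodes decay-accelerating factor, had ratios of 0.55, −0.47, 0.42 and 0.092, a mean of 0.15 ± 0.45 with a 95% interval from −0.27 to 0.57 (adjusted p = 0.56). Replicate 2 was the array with a negative ratio, and without it the mean was 0.35 and passed (adjusted p = 0.024). Under median centring, which moved the median of all tested genes to 0.70, Cd55 had 1.09 and passed (adjusted p = 0.00081), and with centring on the tested probes, which moved it to 0.22, Cd55 had 0.61 and passed (adjusted p = 0.013). Cd55 was well detected, with Cy3 intensities of 403 to 642. Serping1 exceeded Cd55 by 2.15 ± 0.21.

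In order of mean ratio on the brightest probe, the members ran C1s1, C1s2, Cfb, C1ra, Serping1, C3, C4b, Cd55 and C2. C1s2 and Cfb differed by 0.13 ± 0.49, with a sign that changed across arrays, and so could not be ordered. Cfb exceeded C1ra by 0.39 ± 0.34 on 3 of 4 arrays. Serping1 exceeded C3 by 0.17 ± 0.15, with 0.025 on the array where they were closest. The second Serping1 probe, at 1.91 ± 0.40, lay below the first C3 probe, at 2.13 ± 0.39. C3 on its first probe exceeded C4b by 0.51 ± 0.19 and C4b exceeded Cd55 by 1.47 ± 0.17, both on 4 of 4 arrays. The second C3 probe, at 0.76 ± 0.29, lay below C4b on 4 of 4 arrays, so C3 and C4b could not be ordered. Cd55 and C2 differed by 0.019 ± 0.44.

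The tested rest of the complement system had a far lower median ratio, in part from probes near background in control cells. Of 48 other complement genes 46 were on the arrays under these names and 28 were tested, of which 5 were called higher, 0 lower and 23 not called. Their share called higher was 17.9%, close to the 18.8% of all tested genes, and their median was 0.086. Of the 28, 5 were above background in control cells on 0 arrays, so a small ratio there need not mean an unchanged transcript. With both channels required above background on all arrays, 15 were tested and 5 called higher, beside 20.7% of all tested genes. Their median was then 0.15. Feature Extraction's ratios gave 8 higher, beside 17.2% of all tested genes. Leaving out replicate 1 or 3 gave 1 higher, beside 11.8% and 7.91% of all tested genes, and leaving out replicate 4 gave 2, beside 8.87%. Leaving out replicate 2 gave 7 higher and 3 lower, beside 24.9% and 18.3%. Median centring gave 13 higher and 10 lower, beside 66.6% and 16.6% of all tested genes. Centring on the tested probes gave 9 and 14, beside 45.04% and 29.4%.

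Among regulators, Cd55b, the neighbouring paralogue of Cd55, rose by 0.36 ± 0.12 (adjusted p = 0.015) on the brighter of its probes and had 0.059 ± 0.12 on the dimmer. It did not pass without replicate 1, 3 or 4, and had 0.0018 with centring on the tested probes. The membrane regulators Cr1l and Cd59a had 0.18 ± 0.13 and 0.079 ± 0.33 and were not called.

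Among collectins and lectin-pathway genes, Colec10 rose by 0.79 ± 0.21 (adjusted p = 0.0039) and was called in all 16 settings tried. Colec12, a scavenger receptor of the collectin family, rose by 0.62 ± 0.35 (adjusted p = 0.022) but did not pass without replicate 1, 3 or 4. Calr, an endoplasmic reticulum chaperone that also binds C1q at the cell surface, rose by 0.83 ± 0.53 (adjusted p = 0.027) and did not pass without replicate 1 or 3. Among receptors, C1qbp had 0.14 ± 0.05, Lrp1 −0.16 ± 0.24 and Itgam, a subunit of complement receptor 3, −0.14 ± 0.35, none of them called. Itgam passed as lower without replicate 2 (adjusted p = 0.035). Cfp, which encodes properdin, the stabiliser of the alternative pathway enzyme, had 0.19 ± 0.31. Of the terminal pathway 3 of 7 genes were tested, and their ratios lay between −0.14 and 0.024. Of these, Hc and C6 were above background in control cells on only 1 and 2 of 4 arrays.

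**Figure D4:**
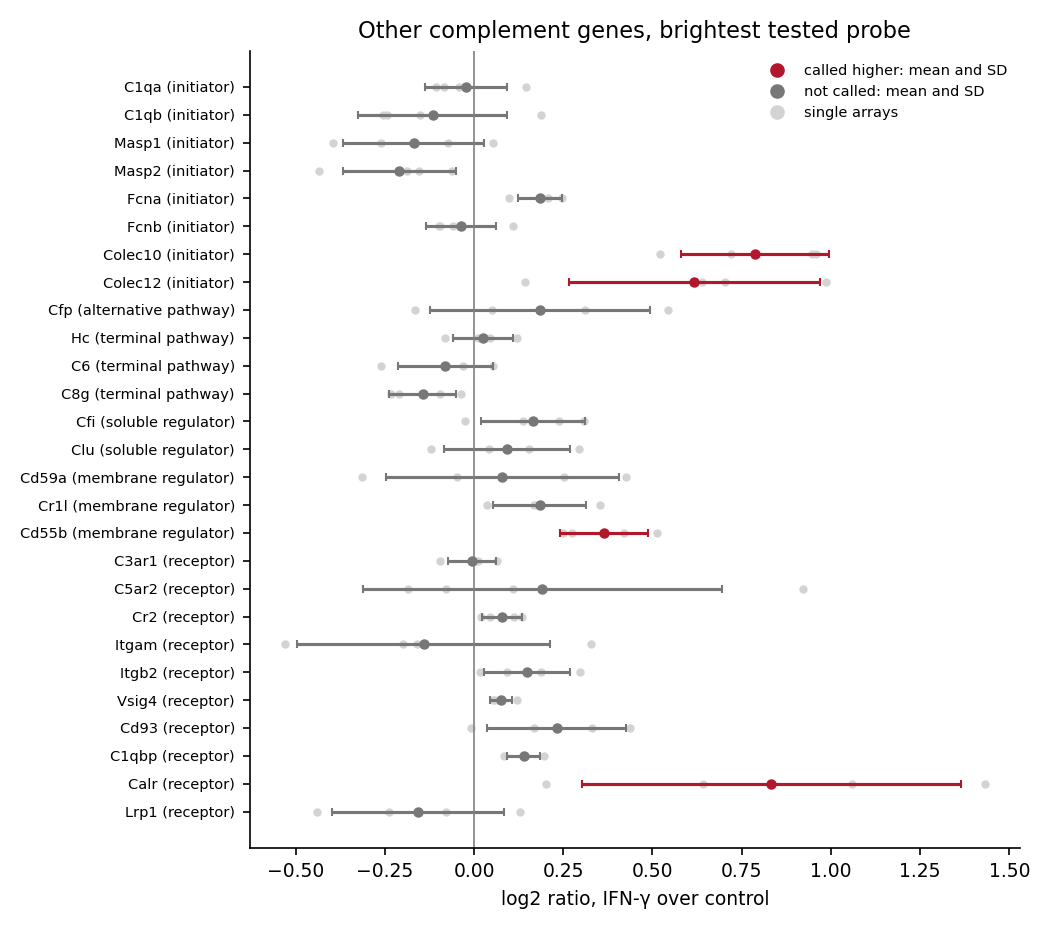
Log2 ratio of IFN-γ over control (x axis) of 27 of the other complement genes that were tested (y axis, with the role in brackets), as mean and SD (dark points) and single arrays (light points). The 4 called genes drawn, in red, have means between 0.36 and 0.83, below the means of all 7 members called higher.

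Genes beside the members mostly did not share their rise. The 4 nearest named genes on each side of each member gave 46 distinct neighbours, of which 41 were tested, 11 were called higher and 7 lower. These are 26.8% and 17.1%, beside 18.8% and 12.9% of all tested genes, and the median was −0.014. The number called higher was 6, 5 and 6 without replicate 1, 3 and 4, and 31 with median centring, where 66.6% of all tested genes were called higher. Between C4b and Cfb, in the class III region of the major histocompatibility complex, lie genes of which Stk19 had −0.35 ± 0.09 and was called lower, whereas Cyp21a1 with −0.014 ± 0.40 and Nelfe, next to Cfb, with 0.026 ± 0.13 were not called. Beyond C2, Zbtb12 had −0.61 ± 0.21, Ehmt2 −0.35 ± 0.20 and Slc44a4, a choline transporter, −1.02 ± 0.33, all called lower. On the other side of C4b, Atf6b rose by 0.64 ± 0.31. Under median centring the ratios of Stk19, Zbtb12 and Ehmt2 were positive, below the median of all tested genes. Calls were lost without replicate 1 or 3 for Atf6b, without replicate 1 or 4 for Stk19, and without replicate 1, 3 or 4 for Ehmt2.

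Around the C1r and C1s genes, C1rb rose as given above. C1rl, a C1r-like protease gene next to C1ra, had 0.053 ± 0.43 and Lpcat3, next to C1s2, −0.13 ± 0.26, neither called. Clstn3 had −0.62 ± 0.12 and was called lower, and Emg1 and Ptpn6 rose by 0.63 ± 0.35 and 0.41 ± 0.13. Beside Serping1, Ube2l6, which encodes the conjugating enzyme for the interferon-induced modifier ISG15, rose by 2.46 ± 0.35 (adjusted p = 0.00032), with 2.61, 2.87, 2.30 and 2.07 on the 4 arrays. Zdhhc5, Clp1 and Slc43a1 near it rose by 0.54 ± 0.32, 0.46 ± 0.10 and 0.36 ± 0.11. Near Cd55, Cxcr4 rose by 0.83 ± 0.28, Pfkfb2 by 0.38 ± 0.14, and Dars had −0.72 ± 0.23, called lower. Near C3, Gpr108 had −0.43 ± 0.13 and was called lower. Calls were lost for Zdhhc5 and Pfkfb2 without replicate 1, 3 or 4, for Slc43a1 without replicate 1 or 3, for Emg1 without replicate 3 or 4, for Ptpn6 without replicate 4 and for Gpr108 without replicate 3.

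**Figure D5:**
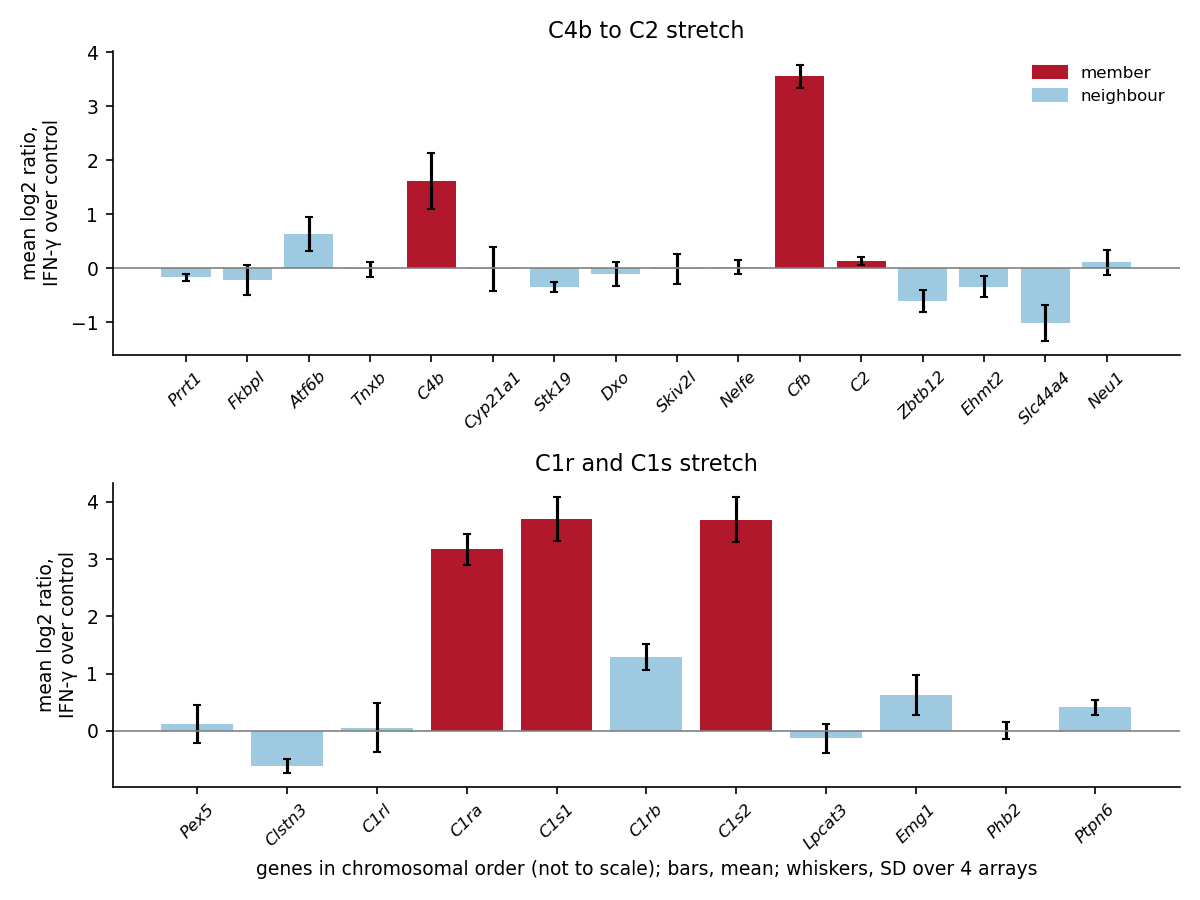
Mean log2 ratio of IFN-γ over control (y axis; bars, with SD over 4 arrays) for genes in chromosomal order, not to scale (x axis), around C4b, Cfb and C2 and around the C1r and C1s genes. Members are red and neighbours blue; Cfb at 3.56 stands between Nelfe at 0.026 and C2 at 0.13, and in the lower panel C1rb at 1.29 stands between C1s1 at 3.70 and C1s2 at 3.69.

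Transcription factors and cofactors with a known link to interferon or acute phase induction were read on the same arrays. Irf1, an early interferon-induced factor, rose by 2.74 ± 0.20 (adjusted p = 4.11e-05), with 0.29 on its second probe, and Irf9 by 2.24 ± 0.11. Nlrc5, which switches on MHC class I genes, rose by 4.50 ± 0.19, with 0.71 on its second probe. Nfkb1 had 0.31 ± 0.21 (adjusted p = 0.053) on its brighter probe and rose by 0.60 ± 0.05 on the other; without replicate 2 the brighter probe passed as well (adjusted p = 0.0099). Of 13 tested factors and cofactors in this list 8 were called higher and 2 lower. These are 61.5% and 15.4%, beside 18.8% and 12.9% of all tested genes. The lower 2 were Stat3 with −0.65 ± 0.44 (adjusted p = 0.035), with 0.16 on its second probe, and Rela with −0.34 ± 0.08 (adjusted p = 0.012).

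Markers of other cells that make complement were looked for in the same RNA. Of 8 hepatocyte markers 3 were tested, and 5, Alb among them, were not well above background on enough arrays. Apoh, one of the 3, rose by 0.32 ± 0.14 (adjusted p = 0.026). The summed intensity of the 3 was 174 to 191 in Cy3 and 282 to 488 in Cy5. Of 10 leukocyte markers 7 were tested, with sums of 937 to 1218 in Cy3 and 2367 to 4493 in Cy5; Cd14 rose by 0.59 ± 0.15, Csf1r had −0.40 ± 0.04 and was called lower, and Ptprc, at 57 in Cy3 and 92.8 in Cy5, had 0.011 ± 0.10. Of 6 tested fibroblast markers 5 rose (83.3%), Col3a1 by 1.15 ± 0.30, and the median ratio of the 6 was 0.56. Their sums were 49961 to 93175 in Cy3 and 450332 to 578741 in Cy5. All these sums are of intensities before normalisation. The median of all spots was also higher in Cy5 on every array, so the sums compare channels as well as treatments. Endothelial and adipocyte lists had 3 of 6 and 1 of 5 markers tested, with 0 called higher in either and Kdr, an endothelial growth factor receptor, called lower at −1.02 ± 0.28 (adjusted p = 0.0033). Of the 10 muscle markers 1 rose and 4 fell (10% and 40%). Over all marker lists 8 genes were called higher and 6 lower, where 18.8% and 12.9% of all tested genes were. The first count was 5, 4 and 4 without replicate 1, 3 and 4, beside 11.8%, 7.91% and 8.87% of all tested genes. It was 17 with median centring, beside 66.6%. The second count was 12 with centring on the tested probes, where 29.4% of all tested genes were called lower. The part of fibroblast-type and muscle genes in the complement result was not tested.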

How the data were processed

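Per the file headers, the authors scanned 4 arrays of 2 colours with Agilent Feature Extraction 10.7.3.1, and the deposited files hold median spot and background intensities per channel and the log10 ratio of Cy5 over Cy3. The labels' protocols give 8 µg of total RNA per labelling. The authors' deposited value table is in log2 units. Over tested probes its slope against the deposited log10 ratios was 3.32 on each array (3.32 turns log10 into log2), its column medians were −0.125 to −0.105, and how it was centred stays unknown.

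Intensities were corrected with normexp (offset 50) and loess-normalised within arrays (limma 3.58.1, R 4.3.3), with control spots at weight 0, outlier-flagged spots left out and spots of a probe averaged. Accessions named 26055 of 39429 probes through the RefSeq gene table. A probe was tested when well above background in one channel on at least 3 of 4 arrays, which held for 28921 probes and all 13 member probes. Ratios were tested against 0 with lmFit and eBayes, two-sided, adjusted over all tested probes at 0.05. The test was checked on simulated data. The number of arrays limits the precision.

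The members and gene lists were chosen with earlier results of these data known. Genes named besides the members are the called genes and the 6 brightest others of the complement list, called neighbours and up to 4 others, regulators, a few markers per list, and the 3 genes nearest in ratio to each of the 2 members with the largest rise. The headers name another genome build than the RefSeq tables, so gene positions are used for order only and printed coordinates belong to the RefSeq sequences. The planned comparison of protein sequences was not run. One called gene of the complement list and 1 regulator that this rule names are not reported here, though they stay in the counts.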

Additional observations from a re-analysis of the deposited data

How the results depend on the processing

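The 7 members called higher were called higher in every setting that was run, and 8 were, with Cd55 added, without replicate 2, with median centring and with centring on the tested probes. Called member probes kept their direction in all settings that tested them. No member gene or probe was called lower by loess, and 1 gene and 1 probe, both C2 with −0.30, were with centring on the tested probes. Other complement genes called higher were 13 with median centring, 8 with Feature Extraction's ratios, 8 with the authors' value table, 9 with centring on the tested probes, and 1 to 7 with a replicate left out; called lower they were 10, 14 and 0 to 3 with median centring, centring on the tested probes and a replicate left out. The last kind of centring was added after seeing the data.

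Signs turned with median centring for Itgam (0.90), Lrp1 (0.86), Stk19 (0.54), Zbtb12 (0.39), Ehmt2 (0.68), Gpr108 (0.58), Dars (0.017), Cyp21a1 (0.63) and Lpcat3 (0.76), and with centring on the tested probes for Itgam (0.42), Lrp1 (0.39), Ptpn6 (−0.071), Stk19 (0.061), Ehmt2 (0.20), Gpr108 (0.10), Cyp21a1 (0.15) and Lpcat3 (0.29). Median centring moved the median of tested genes, each given by its brightest probe, to 0.70 and that on tested probes to 0.22. Both subtract a constant and, unlike loess, fit no dependence of ratios on intensity. The cause of these shifts was not tested. With a replicate left out, values ran from −0.036 to 0.21 for Cd59a, from −0.034 to 0.065 for Nelfe, from −0.11 to 0.19 for Cyp21a1 and from −0.15 to 0.16 for C1rl, whose value was −0.015 with Feature Extraction's ratios and the authors' table. None of these 4 genes was called by loess over all arrays.

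Of called genes 59.2% were higher by loess and 80.1% with median centring. The methods' t-test, unpaired on channel values, called 10 of the 13 member probes at the study's thresholds, before and after Benjamini-Hochberg adjustment, beside 730 and 652 of all 28921 tested probes. The test of ratios within arrays against 0 already pairs treated with control RNA, so no further block was fitted. Depth in dim probes is limited by signal over background, as for C2 and the second probe of C1s2.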
